A study of Mus musculus with 19 samples.

Results

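The SLC25 family of mitochondrial carriers was followed in gastrocnemius, a calf muscle, across 2 diet phases and 2 genotypes. Members were all rows of the deposited count table whose symbol reads Slc25a followed by a number, which gave 47 of 54176 rows. Of these, 40 had enough counts to be tested, among 17028 genes tested in all, and the other 7 (Slc25a2, Slc25a18, Slc25a21, Slc25a31, Slc25a41, Slc25a43 and Slc25a54) are described by level only.

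All animals were FVB mice, either wild type (WT) or mCK-hLPL, which carry human lipoprotein lipase, an enzyme that frees fatty acids from circulating triglyceride, under the muscle creatine kinase promoter. That promoter is active in muscle fibres, and the human transcript itself was not analysed here. Muscle was frozen in weight loss maintenance (WLM) or on the first day of weight regain, after 24 h of refeeding (REL), which gave 5 WT_WLM, 5 mCK-hLPL_WLM, 4 WT_REL and 5 mCK-hLPL_REL libraries. The labels do not state whether each library is a separate animal, nor age or sex, so each p-value speaks to how far these libraries spread, which may be technical.

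SLC25 proteins sit in the inner mitochondrial membrane, with a few in the outer membrane or in peroxisomes, and exchange small molecules between matrix and cytosol. Adenine nucleotide carriers swap ATP for ADP, the phosphate carrier brings phosphate to ATP synthase, and others carry keto acids, amino acids, acylcarnitines, coenzymes, iron or glutathione. In muscle the family serves oxidative ATP supply above all, while the citrate carrier is best known in liver and fat for exporting carbon for fatty acid synthesis.

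Total counts ran from 35595030 to 51073355 per library, and levels are given as CPM, counts divided by library size on the usual scale, with sizes adjusted by the trimmed mean of M-values (TMM). Values of a group are listed by replicate, with no meaning to their order. WT_REL is listed by replicates 1, 2, A and B, since the numbers of 2 of its columns do not line up with the sample titles. Fibre markers were high throughout, summing to 133000 to 170000 CPM over 7 genes in WLM and to 104000 to 155000 CPM in REL, as the labelled tissue calls for. Markers of other cells differed with refeeding: all 6 erythroid genes were higher (sums of 497 to 3110 CPM in WLM and 1020 to 11700 CPM in REL), as were 2 of 4 fibroblast, 2 of 4 endothelial, 1 of 4 macrophage, 1 of 6 fat cell and 1 of 8 liver genes, while 6 of 8 lymph node genes were lower and 1, Ighm, was higher. Of the fibre markers 3 of 7 (Myh1, Myh4 and Atp2a1) were lower. Beside these counts, 10.7% of all genes tested were higher and 9.98% lower, averaged over genotypes. The 8 lymph node genes had a median log2 change of -3.18 averaged over genotypes. No list had a marker at 0 in every library of a group. Liver sums reached 165 CPM in WT_REL replicate B and 169 CPM in mCK-hLPL_REL replicate 5 against at most 33.4 CPM in WLM. In these bulk samples, fewer cells of a type and less RNA per cell cannot be told apart.

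The promoters of 4 members that the results turn on are printed here as the 250 bases before the RefSeq transcription start (GRCm38.p6, 5′ to 3′ on the gene's strand), being those of the 3 members that changed most with refeeding and of the coenzyme A carrier Slc25a42. Capitals mark matches on either strand to CACGTG (E-box), GGGCGG (GC box), CCAAT (the box named by its letters) or AGGTCA (nuclear receptor motif). Slc25a1 lies at chr16:17928220-17928469 on the minus strand, Slc25a10 at chr11:120491587-120491836 on the plus strand, Slc25a34 at chr4:141623835-141624084 on the minus strand and Slc25a42 at chr8:70212282-70212531 on the minus strand.
Slc25a1: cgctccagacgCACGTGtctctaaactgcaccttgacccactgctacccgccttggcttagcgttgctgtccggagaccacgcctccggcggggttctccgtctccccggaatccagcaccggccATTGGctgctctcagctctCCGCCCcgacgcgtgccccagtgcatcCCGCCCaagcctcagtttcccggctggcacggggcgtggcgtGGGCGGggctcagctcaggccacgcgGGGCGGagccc
Slc25a10: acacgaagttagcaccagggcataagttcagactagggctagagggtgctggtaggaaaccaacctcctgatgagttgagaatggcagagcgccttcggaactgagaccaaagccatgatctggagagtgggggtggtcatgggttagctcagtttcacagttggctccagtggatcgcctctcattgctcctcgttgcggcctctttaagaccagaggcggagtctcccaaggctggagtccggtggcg
Slc25a34: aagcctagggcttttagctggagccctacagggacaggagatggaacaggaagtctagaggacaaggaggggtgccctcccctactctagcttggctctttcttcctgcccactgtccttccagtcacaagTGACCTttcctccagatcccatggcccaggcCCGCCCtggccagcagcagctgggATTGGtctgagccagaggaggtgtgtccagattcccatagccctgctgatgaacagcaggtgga
Slc25a42: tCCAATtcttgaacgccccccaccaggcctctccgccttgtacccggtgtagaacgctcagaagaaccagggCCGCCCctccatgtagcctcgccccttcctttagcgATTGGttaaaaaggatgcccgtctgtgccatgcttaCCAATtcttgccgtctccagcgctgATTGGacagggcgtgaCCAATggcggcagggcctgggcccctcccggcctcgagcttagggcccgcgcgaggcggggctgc
The Slc25a1 window held 1 E-box, 4 GC boxes and 1 CCAAT box, Slc25a34 held 1 GC box, 1 CCAAT box and 1 nuclear receptor motif, Slc25a42 held 1 GC box and 5 CCAAT boxes, and Slc25a10 held none of the motifs. A match only says that these letters are present.

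Promoters were found for 36 of the 47 members, and for 12 of the 15 that changed with refeeding. GC boxes were in 5 of 6 promoters of members that rose and in 6 of 6 of those that fell, against 25 of the 36 family promoters and 32.7% of all 32851 promoters of that length. CCAAT was in 3 of 6 and 5 of 6, against 18 of the 36 and 33.8%. The E-box was in Slc25a1 alone of these 12, against 7 of the 36 family promoters and 6.02% of all promoters. The nuclear receptor motif was in Slc25a39 and Slc25a34, against 4 of the 36 and 14%. Neither TCACNCCAC, a form of the sterol regulatory element, nor the NRF1 site was in any of the 12. The first was in 1 of the 36 and 1.05% of all promoters, the second in 2 of the 36 and 3.74%.

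Per kilobase of annotated exon, Slc25a4 stood far above the rest of the family. This adenine nucleotide translocator of heart and muscle was at 1180 CPM per kb, taken, as for the other members, as the mean of the 4 group means. That was 76.4% of the family's summed level on the same scale. Next came the phosphate carrier Slc25a3 at 82.8 CPM per kb and the oxoglutarate/malate carrier Slc25a11 at 81.3 CPM per kb, followed by the aspartate/glutamate carrier Slc25a12 at 33.7, the second translocator Slc25a5 at 18.7, the calcium-regulated ATP-Mg/phosphate carrier Slc25a25 at 18.2, the citrate carrier Slc25a1 at 13.7 and the glutathione carrier Slc25a39 at 12 CPM per kb. The group means of Slc25a3 and Slc25a11 interleaved, as did those of Slc25a5 and Slc25a25, so neither pair has a settled order. The place of Slc25a1 depended on the phase: it averaged 7.05 and 4.92 CPM per kb in WT_WLM and mCK-hLPL_WLM, below Slc25a39 at 9.85 and 10.3, and 20.1 and 22.8 CPM per kb in WT_REL and mCK-hLPL_REL, above Slc25a39, Slc25a5 and Slc25a25. The liver-type aspartate/glutamate carrier Slc25a13 was at 0.184 CPM per kb. At the low end, the testis translocator Slc25a31 had 23 counts over all libraries and Slc25a54 had 2 counts in all, both in mCK-hLPL_REL.

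**Figure D1:**
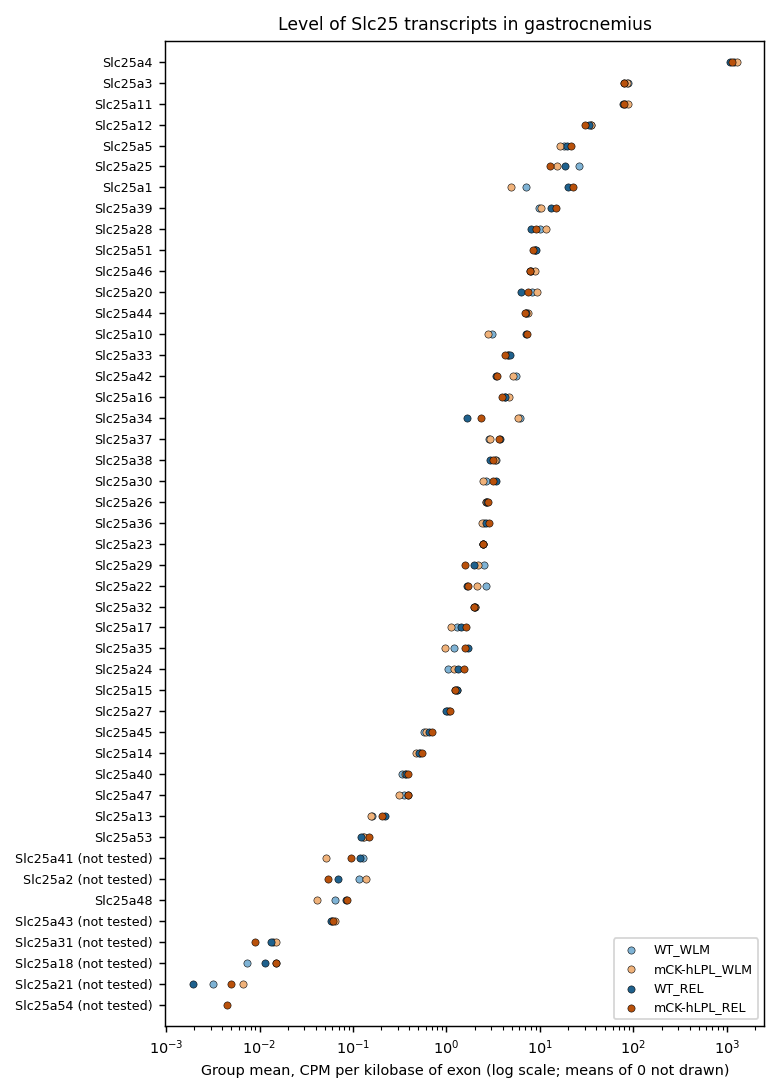
Mean level of Slc25 transcripts in each group, in CPM per kilobase of exon on a log axis, ordered by the mean of group means. Slc25a4 sits near 1180 CPM per kb, against 82.8 for Slc25a3 and 81.3 for Slc25a11, and the 7 untested members sit among the lowest.

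The summed CPM of the family was 4458 ± 258 (SD, n = 5) in WT_WLM, 4616 ± 217 (n = 5) in mCK-hLPL_WLM, 4119 ± 292 (n = 4) in WT_REL and 4186 ± 543 (n = 5) in mCK-hLPL_REL. The group means differed by amounts similar to the SDs, and no test was run on the sum. Slc25a4 alone supplied 62.1% to 65.9% of these summed counts by group.

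Refeeding was compared with weight loss maintenance over both genotypes. Averaged over genotypes, 15 of the 40 tested members (37.5%) passed an adjusted p of 0.05 in edgeR's quasi-likelihood test, against 20.7% of all genes tested. Of these, 9 rose (among them Slc25a1, Slc25a10, Slc25a35, Slc25a39, Slc25a30, Slc25a24, Slc25a37 and Slc25a17), against 10.7% of all genes, and 6 fell (Slc25a34, Slc25a42, Slc25a22, Slc25a29, Slc25a20 and Slc25a28), against 9.98%. The REL and WLM libraries did not overlap for 4 members, of which 3 were higher in REL (Slc25a10 and Slc25a39 among them) and 1 was lower (Slc25a34), against 1.81% of all genes, 0.998% higher and 0.816% lower. The median size of the log2 change was 0.213 over the 40 members and 0.161 over all genes, and the median signed change was -0.0022 and 0.0014. None of the 5 members of highest CPM passed. With all libraries scaled to a common median of the tested genes, an alternative added after seeing the data, 7 members rose and 6 fell, and the share of higher genes among all calls went from 51.7% to 38.2%. The fibre markers Myh1, Myh4 and Atp2a1 had log2 changes of -0.43, -0.44 and -0.31, the fibroblast genes Col1a1 and Col3a1 of 1.5 and 1.36, and the part of other cells and of fibre content in the members' changes was not tested.

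Within WT, 9 members passed (5 higher, 4 lower), or 22.5% against 4.88% of all genes, 2.63% of which were higher and 2.25% lower. Within mCK-hLPL, 11 passed (6 higher, 5 lower), or 27.5% against 8.15% of all genes, with 4.11% higher and 4.03% lower. The 2 genotypes share no library in these comparisons. In both, 8 members passed, among them Slc25a1, Slc25a10, Slc25a35, Slc25a39, Slc25a34, Slc25a42 and Slc25a20. Slc25a22 passed in WT and not in mCK-hLPL, and Slc25a17, Slc25a28 and Slc25a29 in mCK-hLPL and not in WT, but no interaction passed, so these are not shown to differ between genotypes. Slc25a37, Slc25a30 and Slc25a24 passed only in the average. The refeeding change had the same sign in both genotypes for 33 of 40 members (74.1% of all genes tested). All members that passed in a genotype had the same sign in the other. The share of all genes was not taken for passing in both genotypes or for sign among called genes. Neither count is therefore read as a trait of the family.

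**Figure D2:**
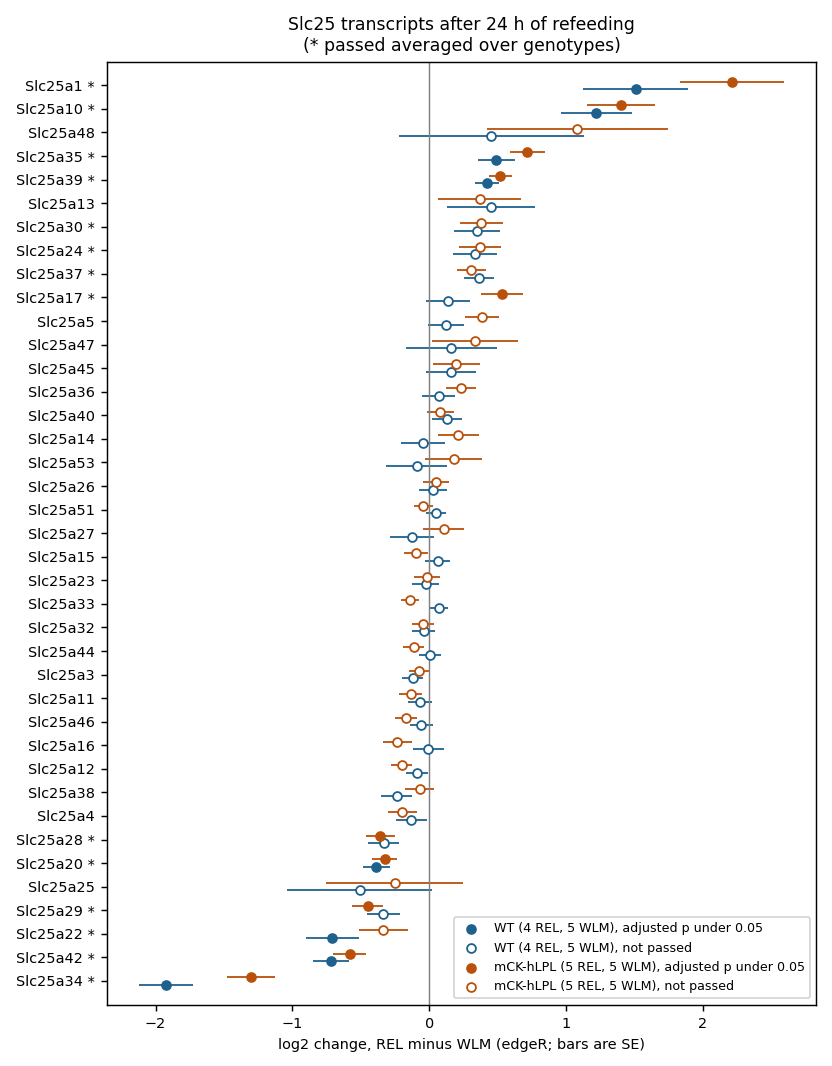
Log2 change of tested Slc25 transcripts from WLM to REL within WT (blue) and within mCK-hLPL (orange), with the SE as bars; filled points passed an adjusted p of 0.05 and a star marks members that passed averaged over genotypes. Slc25a1 and Slc25a10 lie farthest to the right and Slc25a34 farthest to the left in both genotypes.

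Among carriers of citrate, dicarboxylates and keto acids, 2 of 3 tested members rose, where 10.7% of all genes did. Slc25a1, which exports citrate from the matrix in exchange for malate (chr16:17925223-17928219, minus strand, GRCm38), held 22.7, 12.3, 12.8, 8.09 and 20.4 CPM in WT_WLM and 13.8, 5.76, 14.7, 12.8 and 6.19 CPM in mCK-hLPL_WLM. After refeeding it held 34, 51.1, 26.8 and 61.7 CPM in WT_REL and 20.6, 81, 64, 30.6 and 50.9 CPM in mCK-hLPL_REL. All but 1 of the 9 REL libraries lay above the highest WLM library, the exception being mCK-hLPL_REL replicate 1 at 20.6 CPM. Averaged over genotypes Slc25a1 rose 3.64-fold, a log2 change of 1.86 ± 0.27 (adjusted p = 0.000133). The change was 1.51 ± 0.39 in WT (adjusted p = 0.0306) and 2.22 ± 0.38 in mCK-hLPL (adjusted p = 0.00215). In WT the call is lost without any of WT_WLM replicates 2, 3 or 4 or WT_REL replicates 1, 2 or B (log2 changes of 1.30 to 1.69 over all libraries left out, highest adjusted p = 0.117).

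Slc25a10, the dicarboxylate carrier, exchanges malate or succinate for phosphate or sulphate (chr11:120491840-120499187, plus strand). Its WLM libraries held 13, 8.31, 9.11, 9.38 and 12.8 CPM in WT_WLM and 14.1, 6.72, 11.7, 9.14 and 6.36 CPM in mCK-hLPL_WLM. With refeeding the values were 17.2, 24.6, 22.7 and 33.7 CPM in WT_REL and 17, 36.5, 31.8, 18.5 and 23.2 CPM in mCK-hLPL_REL. Every REL library was above every WLM library, the lowest of the first being at 17 and the highest of the second at 14.1 CPM. The average rise was 2.48-fold (log2 1.31 ± 0.18, adjusted p = 7.93e-05), and it passed in WT (1.22 ± 0.26, adjusted p = 0.0115) and in mCK-hLPL (1.40 ± 0.25, adjusted p = 0.00276). Without WT_REL replicate B, the WT call is lost (highest adjusted p = 0.0562).

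The third tested carrier of the group, Slc25a11, trades oxoglutarate for malate in the malate-aspartate shuttle and is among the most abundant members. In WLM it was at 188, 175, 168, 186 and 149 CPM in WT_WLM and 175, 195, 196, 163 and 189 CPM in mCK-hLPL_WLM. In REL it was at 169, 174, 172 and 146 CPM in WT_REL and 170, 158, 147, 170 and 191 CPM in mCK-hLPL_REL. The phases overlapped over most of their range, and the log2 change of -0.10 ± 0.061 did not pass (adjusted p = 0.264). Its gene overlaps Rnf167 on the other strand by 245 bases, and the strand setting of the counting is not given in the sources used here. Slc25a21, the oxodicarboxylate carrier, had at most 4 counts in a library.

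Genes that use or supply exported citrate were set beside these carriers. Of 8, 4 rose and 3 fell averaged over genotypes, against 20.7% of all genes called in either direction; the list's median log2 change was 0.15, against 0.0014 over all genes. ATP citrate lyase (Acly), which splits citrate into acetyl-CoA, rose by 2.9 ± 0.30 (adjusted p = 5.2e-06), from 14.7 to 52.8 CPM in WLM to 71.8 to 341 CPM in REL, with no overlap. Fatty acid synthase (Fasn) rose by 2.02 ± 0.37 (adjusted p = 0.000884), acetyl-CoA carboxylase 1 (Acaca) by 1.55 ± 0.28 (adjusted p = 0.000846) and malic enzyme 1 (Me1) by 0.44 ± 0.094 (adjusted p = 0.0029). Acetyl-CoA carboxylase 2 (Acacb), the isoform whose malonyl-CoA restrains fatty acid oxidation, had a log2 change of -0.38 ± 0.11 (adjusted p = 0.0153) and cytosolic malate dehydrogenase (Mdh1) -0.31 ± 0.090 (adjusted p = 0.0204). The 4 that rose split citrate or make fatty acids or their NADPH, while Mdh1 belongs to the malate shuttle and Acacb to the control of oxidation.

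Within each phase, both carriers were higher in libraries with more Acly and with more fat cell marker transcripts. These pairs were chosen after their values were seen, so 8 correlations of log2 CPM are given as a description with no p. Slc25a1 and Acly had r = 0.968 and rho = 0.952 over the 10 WLM libraries, and r = 0.971 and rho = 1.0 over the 9 REL libraries. Without the 2 libraries farthest from the median of Acly, r was 0.974 in WLM and 0.946 in REL. Slc25a10 and Acly had r = 0.826 and rho = 0.842 in WLM and r = 0.831 and rho = 0.917 in REL, with r of 0.764 and 0.965 without the 2 farthest libraries. Against the sum of 6 fat cell markers (Adipoq, Lep, Plin1, Cidec, Adrb3 and Cfd), Slc25a10 had r = 0.931 and rho = 0.855 in WLM and r = 0.96 and rho = 0.933 in REL, and r without the 2 farthest libraries was 0.925 and 0.954. Slc25a1 and the same sum had r = 0.823 and rho = 0.806 in WLM and r = 0.831 and rho = 0.783 in REL, with r of 0.899 and 0.823 without the 2 farthest. Whether either carrier lies closer to Acly or to the fat cell sum was not tested.

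The fat cell sum itself was alike in the phases, at 157 to 452 CPM with a median of 299 in WLM and at 175 to 459 CPM with a median of 305 in REL, and only Plin1 of its 6 genes rose (0.72 ± 0.21, adjusted p = 0.0221). With a fat cell score as a covariate, an alternative added after seeing the data, the average change was 1.68 for Slc25a1 (adjusted p = 1.74e-05) and 1.15 for Slc25a10 (adjusted p = 8.07e-08). At a like fat cell sum, REL libraries lay above WLM libraries for both carriers. How much of either transcript came from fat cells in the muscle was not tested.

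**Figure D3:**
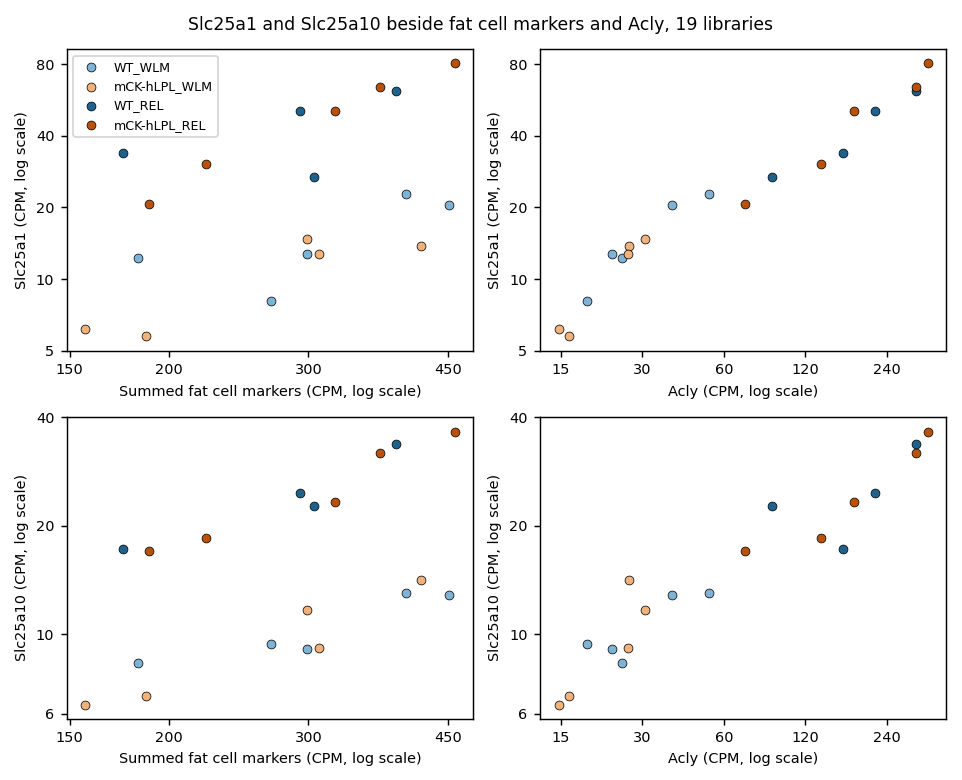
CPM of Slc25a1 (top) and Slc25a10 (bottom) in each of the 19 libraries against the summed CPM of 6 fat cell markers (left) and against Acly (right), all on log axes, coloured by group. REL libraries form a band above the WLM libraries at the same marker sum, from 17 to 36.5 CPM against 6.36 to 14.1 CPM for Slc25a10, and both bands slope upwards.

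The largest fall in the family was that of Slc25a34, a carrier whose substrate is not settled (chr4:141618824-141623821, minus strand). Libraries of the WLM groups held 22.2, 14.4, 16.7, 16.4 and 12.7 CPM in WT_WLM and 17.3, 12.7, 17, 14.2 and 16.2 CPM in mCK-hLPL_WLM. Refed libraries held 3.62, 4.98, 5.48 and 3.38 CPM in WT_REL and 8.49, 6.92, 4.29, 6.15 and 5.61 CPM in mCK-hLPL_REL. No libraries of the 2 phases overlapped, with a lowest WLM value of 12.7 and a highest REL value of 8.49 CPM. The level after refeeding was 0.327 of that in WLM (log2 -1.61 ± 0.13, adjusted p = 5.43e-07), with -1.92 ± 0.20 in WT (adjusted p = 5.59e-05) and -1.30 ± 0.18 in mCK-hLPL (adjusted p = 0.000398). Its call passed in every alternative run, in the average and within each genotype. The interaction of 0.62 ± 0.26 had an unadjusted p of 0.026 and an adjusted p of 1.0.

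By similarity of its log2 CPM over the 19 libraries, the gene most like Slc25a34 was Mlycd, malonyl-CoA decarboxylase, with r = 0.974 over all libraries and 0.807 after the group means were taken out. Those numbers describe a choice of the nearest among the genes tested and carry no test. Symbols of Gm with a number, ending in Rik or turned into dates were left out of the choice. For Slc25a1 the nearest were Tkt and Elovl6 (r = 0.988 each; 0.969 and 0.963 within groups) and for Slc25a10 Agpat2 (0.982; 0.93 within groups).

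Slc25a35, likewise without a settled substrate (chr11:68968131-68974365, plus strand), moved the other way. In WLM it was at 4.95, 4.28, 3.80, 4.04 and 5.01 CPM in WT_WLM and 3.39, 3.42, 3.85, 3.34 and 3.59 CPM in mCK-hLPL_WLM. In REL it was at 5.93, 6.42, 5.62 and 6.88 CPM in WT_REL and 5.29, 6.69, 7.28, 4.04 and 5.61 CPM in mCK-hLPL_REL. All 5 mCK-hLPL_WLM libraries were below every REL library, and 8 of 9 REL libraries were above the whole WLM range. Slc25a35 rose by 0.61 ± 0.093 (adjusted p = 0.000218), by 0.49 ± 0.13 in WT (adjusted p = 0.0403) and by 0.72 ± 0.13 in mCK-hLPL (adjusted p = 0.00296). Its gene overlaps Rangrf on the opposite strand by 1882 bases, a gene at 22.8 CPM on average, so reads from that stretch cannot be assigned to either gene without the strand setting. In WT the call was lost without any 1 of 6 libraries (highest adjusted p = 0.132).

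Among coenzyme and vitamin carriers, Slc25a42, which carries coenzyme A into the matrix, fell (chr8:70184340-70212305, minus strand). It was measured at 34.4, 30.6, 30.7, 36.1 and 33.5 CPM in WT_WLM and 31.5, 26.8, 29, 29.9 and 38.4 CPM in mCK-hLPL_WLM. Refed muscle held 18.5, 21.7, 21.7 and 18.7 CPM in WT_REL and 27.4, 21.9, 20.6, 18.5 and 15.6 CPM in mCK-hLPL_REL. All REL libraries but mCK-hLPL_REL replicate 1 (27.4 CPM) were below the lowest WLM library. The log2 change was -0.65 ± 0.088 (adjusted p = 7.89e-05), a level 0.638 of that in WLM. It was -0.72 ± 0.13 in WT (adjusted p = 0.00446) and -0.58 ± 0.12 in mCK-hLPL (adjusted p = 0.00728). The WT call was lost with the replicate number as a block (adjusted p = 0.183) and in the 17 numbered libraries alone (adjusted p = 0.0552).

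Slc25a17, the peroxisomal carrier of coenzyme A, FAD and NAD, was low. It had 4.29, 3.54, 3.63, 3.08 and 3.98 CPM in WT_WLM and 3.39, 2.83, 3.58, 3.80 and 2.47 CPM in mCK-hLPL_WLM. Its REL values were 4.10, 3.49, 3.83 and 4.84 CPM in WT_REL and 3.35, 6.09, 4.40, 4.04 and 5.33 CPM in mCK-hLPL_REL. The phases overlapped, and 4 of 9 REL libraries exceeded the highest WLM library. It rose by 0.34 ± 0.11 averaged over genotypes (adjusted p = 0.0397) and by 0.53 ± 0.15 in mCK-hLPL (adjusted p = 0.0393), but not past the threshold in WT (0.14 ± 0.16, adjusted p = 0.687). The average call was lost without any 1 of 9 libraries, with adjusted p up to 0.0958, and the mCK-hLPL call without any 1 of 6, with adjusted p up to 0.122.

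Of the 9 tested members of the coenzyme and nucleotide group, 2 rose, 1 fell and 6 did not pass. Over all genes tested, 10.7% rose and 9.98% fell. The 6 were Slc25a16, Slc25a26 (S-adenosylmethionine), Slc25a32 (folate and FAD), Slc25a33 and Slc25a36 (pyrimidine nucleotides) and Slc25a51 (NAD+). Their average log2 changes ran from -0.12 ± 0.076 (Slc25a16) to 0.15 ± 0.080 (Slc25a36). In a list of 10 mitochondrial one-carbon, iron and coenzyme genes, none rose and 4 fell, against 10.7% and 9.98% of all genes, with a median log2 change of -0.0755. They were the coenzyme A synthesis kinases Pank1 (-0.59 ± 0.088, adjusted p = 0.000174) and Pank2 (-0.16 ± 0.045, adjusted p = 0.0186), the NAD kinase Nadk2 (-0.33 ± 0.079, adjusted p = 0.00646) and the iron-sulphur scaffold Iscu (-0.19 ± 0.056, adjusted p = 0.0186).

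**Figure D4:**
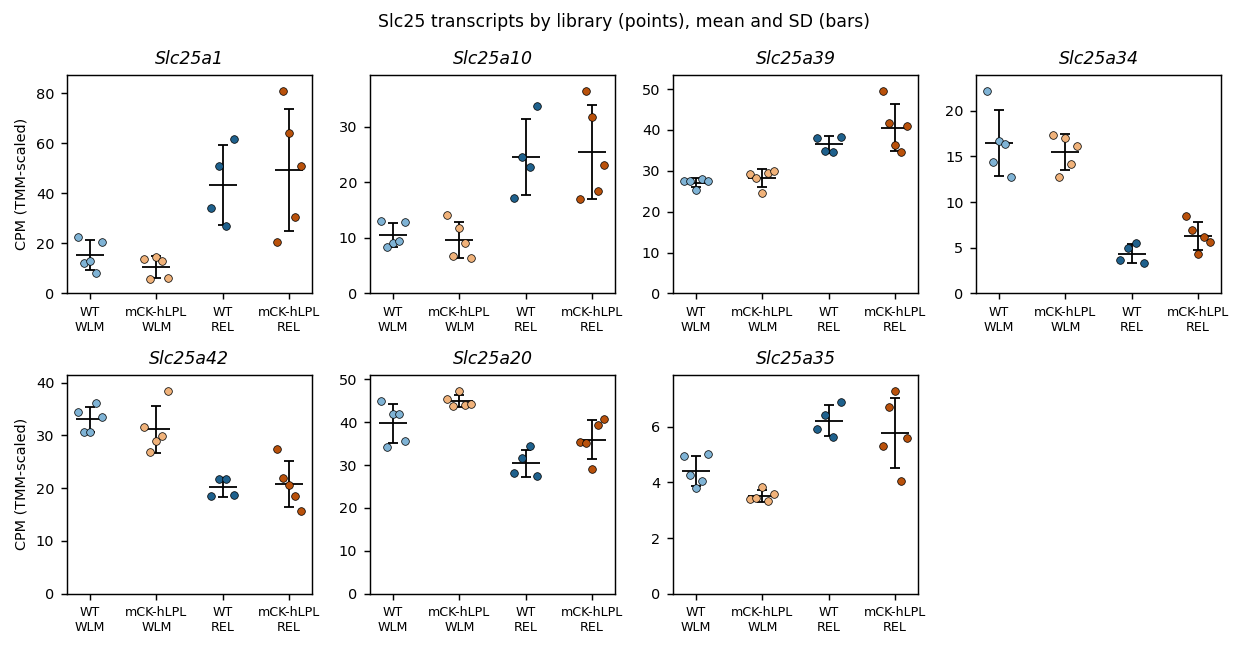
CPM of 7 members that passed in both genotypes, 1 panel each, with 1 point per library and the group mean and SD as bars. Slc25a10 and Slc25a39 are higher in every REL library and Slc25a34 lower in every REL library than in any WLM library.

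The glutathione carrier Slc25a39 (chr11:102402985-102407946, minus strand) changed by less, but with a narrow spread. It was at 27.5, 27.4, 25.2, 28 and 27.6 CPM in WT_WLM and 29.3, 28.3, 24.6, 29.5 and 29.9 CPM in mCK-hLPL_WLM. In REL it stood at 38.1, 34.9, 34.5 and 38.3 CPM in WT_REL and 49.6, 41.6, 36.4, 34.5 and 40.9 CPM in mCK-hLPL_REL. The phases were separate, with 29.9 CPM as the highest WLM and 34.5 CPM as the lowest REL value. Its rise was 1.39-fold (log2 0.47 ± 0.061, adjusted p = 5e-05), 0.43 ± 0.088 in WT (adjusted p = 0.0105) and 0.52 ± 0.084 in mCK-hLPL (adjusted p = 0.00153). With an erythroid score as a covariate, added after seeing the data, the call was lost in WT (adjusted p = 0.0516) and in mCK-hLPL (adjusted p = 0.0606). The WT call was also lost in the 17 libraries with a replicate number (adjusted p = 0.0739). Slc25a40, its close paralogue and also a glutathione carrier, was at 3.03 CPM on average and did not pass (0.11 ± 0.075, adjusted p = 0.341).

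The 2 mitochondrial iron importers went in opposite directions. Slc25a37, mitoferrin 1, the form that red cell precursors rely on (chr14:69241848-69285112, minus strand), had 17.2, 18.7, 15.5, 18.3 and 17 CPM in WT_WLM and 17.8, 16.6, 17.6, 16.4 and 20.1 CPM in mCK-hLPL_WLM. Its REL libraries had 22.1, 22.5, 20.8 and 23.9 CPM in WT_REL and 28, 20.8, 24.8, 17.5 and 18.6 CPM in mCK-hLPL_REL. In REL 7 of 9 libraries were above the WLM range. It rose by 0.34 ± 0.076 (adjusted p = 0.00447) and passed in neither genotype alone.

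Slc25a28, mitoferrin 2, the broadly expressed form (chr19:43663801-43674881, minus strand), was at 39.5, 42.6, 36.7, 41.4 and 29.3 CPM in WT_WLM and 38.5, 50.7, 45.2, 39.5 and 42.2 CPM in mCK-hLPL_WLM. After refeeding it was at 26.3, 28.6, 33.6 and 31.8 CPM in WT_REL and 32.5, 31.8, 29.1, 37.4 and 37.8 CPM in mCK-hLPL_REL. The ranges overlapped and 3 REL libraries lay below all WLM libraries. It fell by 0.35 ± 0.078 (adjusted p = 0.00428); in mCK-hLPL the change was -0.36 ± 0.11 (adjusted p = 0.0434) and in WT -0.33 ± 0.11 (adjusted p = 0.0956). The mCK-hLPL call is lost without any 1 of 9 libraries (adjusted p up to 0.123). With an erythroid score as a covariate, an alternative added after seeing the data, the change was 0.21 for Slc25a37 (adjusted p = 0.226), -0.26 for Slc25a28 (adjusted p = 0.145) and 0.32 for Slc25a39 (adjusted p = 0.00793). All 6 erythroid genes rose with refeeding, by 1.30 ± 0.35 for Hbb-bs to 2.35 ± 0.45 for Slc4a1, and their part in the mitoferrin values was not tested beyond this.

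Slc25a20, the only acylcarnitine carrier of the family, takes long-chain acylcarnitines into the matrix for oxidation (chr9:108662088-108684641, plus strand). It was at 45, 34.3, 41.9, 42 and 35.7 CPM in WT_WLM and 45.5, 43.8, 47.3, 44.1 and 44.3 CPM in mCK-hLPL_WLM. In REL it was at 28.2, 31.6, 34.4 and 27.5 CPM in WT_REL and 35.5, 35.2, 29, 39.4 and 40.7 CPM in mCK-hLPL_REL. Values were lower in REL, with 4 of 9 libraries below the WLM range, all but 1 of them in WT. It fell by 0.36 ± 0.068 (adjusted p = 0.00122), -0.39 ± 0.099 in WT (adjusted p = 0.0301) and -0.32 ± 0.092 in mCK-hLPL (adjusted p = 0.0372). Within a genotype these calls are thin: the WT call is lost without any 1 of 6 libraries (adjusted p up to 0.129) and the mCK-hLPL call without any 1 of 9 (up to 0.105). With the erythroid covariate the average change was -0.29 (adjusted p = 0.058). Of 5 carnitine shuttle genes, 2 fell and none rose (median -0.14), where 9.98% of all genes fell: Cpt1b, the muscle form of the outer membrane transferase (-0.26 ± 0.063, adjusted p = 0.0065), and Crat, carnitine acetyltransferase (-0.24 ± 0.077, adjusted p = 0.0342).

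Amino acid carriers were mostly level. Slc25a22, a glutamate carrier (chr7:141429744-141437892, minus strand), was at 16.9, 11.4, 17.6, 13 and 21.4 CPM in WT_WLM and 15.4, 9.45, 11.5, 15.3 and 12.4 CPM in mCK-hLPL_WLM. Refed values were 6.96, 10.8, 12.5 and 9.07 CPM in WT_REL and 11.6, 11.3, 10.6, 9.20 and 7.94 CPM in mCK-hLPL_REL. It fell by 0.52 ± 0.13 (adjusted p = 0.00883), with -0.71 ± 0.19 in WT (adjusted p = 0.0403) and -0.34 ± 0.18 in mCK-hLPL (adjusted p = 0.26). Ranges overlapped, and 4 REL libraries were below every WLM library. The WT call is lost without any 1 of 6 libraries (adjusted p up to 0.141). Without the 3 libraries richest in liver transcripts the average change was -0.43 (adjusted p = 0.0635).

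Slc25a29 carries basic amino acids such as arginine and lysine (chr12:108825873-108835883, minus strand). It had 5.97, 7.01, 6.33, 6.71 and 6.47 CPM in WT_WLM and 6.11, 4.94, 5.33, 6.55 and 5.13 CPM in mCK-hLPL_WLM. In REL the values were 3.93, 5.36, 5.29 and 6.02 CPM in WT_REL and 5.06, 4.05, 4.12, 3.72 and 3.63 CPM in mCK-hLPL_REL. All REL values of mCK-hLPL but 1 were below the WLM range, while WT_REL replicates 2, A and B lay within it. It fell by 0.39 ± 0.084 (adjusted p = 0.0029), by 0.45 ± 0.11 in mCK-hLPL (adjusted p = 0.0224), while the change in WT was -0.33 ± 0.12 (adjusted p = 0.116). The mCK-hLPL call is lost without mCK-hLPL_REL replicate 2 or 5 (adjusted p up to 0.0559). Its gene starts 162 bases from that of Slc25a47 on the other strand, a member known from liver that was at 1.07 CPM and did not pass (0.25 ± 0.23, adjusted p = 0.48).

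Slc25a12, the muscle form of the aspartate/glutamate carrier, feeds cytosolic reducing equivalents into mitochondria. It was at 274, 243, 262, 287 and 234 CPM in WT_WLM and 240, 253, 269, 244 and 289 CPM in mCK-hLPL_WLM. In REL it was at 250, 260, 252 and 217 CPM in WT_REL and 232, 208, 217, 242 and 227 CPM in mCK-hLPL_REL. The ranges overlapped, and the change of -0.14 ± 0.056 did not pass (adjusted p = 0.072). Of the shuttle's 4 enzymes, Mdh1 alone fell, where 9.98% of all genes did. Slc25a13 (0.41 ± 0.22, adjusted p = 0.199), the ornithine carrier Slc25a15 (-0.017 ± 0.062, adjusted p = 0.876), the glycine carrier Slc25a38 (-0.15 ± 0.078, adjusted p = 0.174) and the branched-chain amino acid carrier Slc25a44 (-0.054 ± 0.057, adjusted p = 0.541) did not pass either. Slc25a2 and Slc25a18 had at most 12 and 3 counts in a library.

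The carriers that set ATP supply, and hold most of the family's transcripts, did not pass. Slc25a4 (chr8:46206797-46211284, minus strand) was at 2770, 2820, 2870, 3120 and 2450 CPM in WT_WLM and 2900, 3470, 3140, 2750 and 2970 CPM in mCK-hLPL_WLM. After refeeding it was at 2580, 2720, 2720 and 2230 CPM in WT_REL and 2410, 2430, 2250, 2940 and 3270 CPM in mCK-hLPL_REL. Most libraries of the phases overlapped, 4 of 9 REL libraries lay below the WLM range, and the change of -0.16 ± 0.078 missed the threshold (adjusted p = 0.145). The phosphate carrier Slc25a3 had 504, 464, 502, 493 and 445 CPM in WT_WLM and 466, 454, 437, 506 and 481 CPM in mCK-hLPL_WLM. Its REL values were 457, 446, 470 and 399 CPM in WT_REL and 482, 430, 396, 446 and 473 CPM in mCK-hLPL_REL. The phases overlapped here too, at a change of -0.098 ± 0.053 (adjusted p = 0.199). Slc25a5, the translocator of growing tissues, was close to the threshold at 0.25 ± 0.090 (adjusted p = 0.0509). A pseudogene of Slc25a5 has its own row in the table, at no more than 0.0824 CPM in any library (WT_REL replicate 1). Whether reads are shared between Slc25a5, this copy and the related translocators was not tested.

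**Figure D5:**
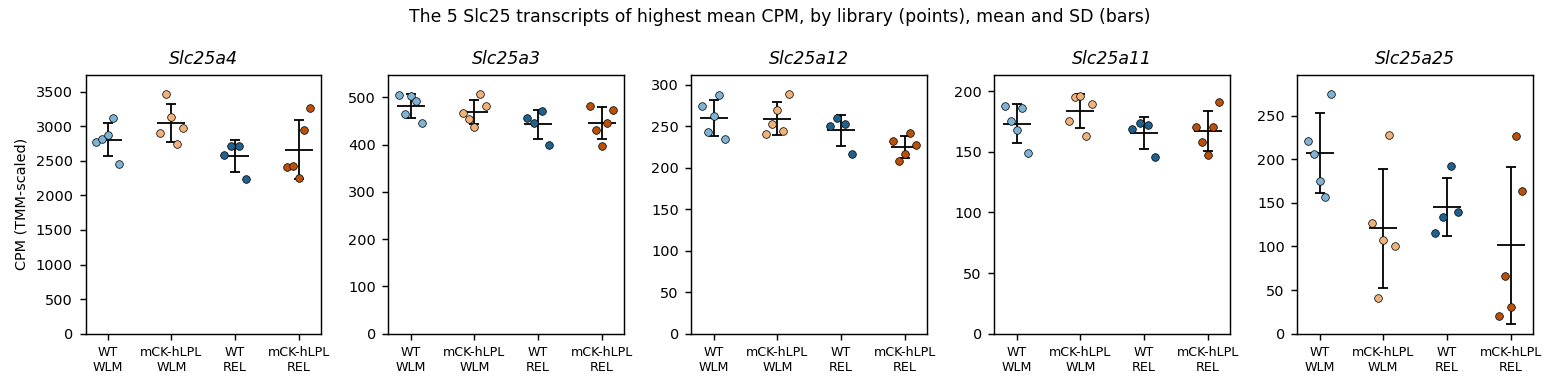
CPM of the 5 Slc25 transcripts of highest mean CPM, 1 panel each, with points for libraries and bars for the group mean and SD. Slc25a4, Slc25a3, Slc25a12 and Slc25a11 differ little between groups, while Slc25a25 ranges from 20 to 275 CPM.

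Slc25a25, an ATP-Mg/phosphate carrier switched on by calcium (chr2:32414487-32451445, minus strand), was the most scattered of the abundant members. WLM libraries held 221, 206, 175, 157 and 275 CPM in WT_WLM and 127, 40.7, 107, 228 and 101 CPM in mCK-hLPL_WLM. REL libraries held 115, 134, 192 and 140 CPM in WT_REL and 20, 66.1, 30.1, 227 and 163 CPM in mCK-hLPL_REL. The coefficient of variation was 22.1% in WT_WLM and 22.6% in WT_REL but 56.3% in mCK-hLPL_WLM and 89.1% in mCK-hLPL_REL, where 3 libraries were at 20 to 66.1 and 2 at 163 and 227 CPM. Neither refeeding (-0.38 ± 0.36, adjusted p = 0.497) nor genotype averaged over phases (-0.65 ± 0.36, adjusted p = 0.78) passed. The most similar genes over the 19 libraries were Tsc22d3, a glucocorticoid-induced gene (r = 0.896, and 0.867 within groups), and Nfil3, a clock-linked repressor (0.878, and 0.864 within groups). They are named as the nearest among the genes tested, again without Gm, Rik and date symbols, and with no test.

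Its relative Slc25a24 (chr3:109123149-109168457, plus strand) was at 3.82, 4.57, 3.16, 2.92 and 3.61 CPM in WT_WLM and 4.21, 3.01, 3.53, 5.53 and 4.31 CPM in mCK-hLPL_WLM. REL values were 4.82, 4.23, 3.83 and 5.33 CPM in WT_REL and 4.91, 6.67, 5.34, 4.84 and 4.84 CPM in mCK-hLPL_REL. Only 1 REL library exceeded all WLM libraries. It rose by 0.35 ± 0.11 in the average (adjusted p = 0.031) and passed in neither genotype, and the call was lost without any 1 of 7 libraries (adjusted p up to 0.0706). Slc25a23, the third tested member of this subgroup, was nearly level at -0.021 ± 0.068 (adjusted p = 0.862).

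Of the uncoupling-protein-like members, Slc25a30 (chr14:75760117-75787037, minus strand) had 11.7, 9.50, 13.2, 14.5 and 11.9 CPM in WT_WLM and 11.7, 10.2, 9.07, 12.8 and 11.8 CPM in mCK-hLPL_WLM. In REL it had 15.2, 20.7, 15.9 and 10.3 CPM in WT_REL and 13.5, 13.3, 12.4, 18.9 and 14.3 CPM in mCK-hLPL_REL. The phases overlapped, with 4 REL libraries above the WLM range and WT_REL replicate B at 10.3 CPM within it. It rose by 0.37 ± 0.11 (adjusted p = 0.0295), passed in neither genotype, and lost the call without any 1 of 7 libraries (adjusted p up to 0.081). Slc25a14 (0.084 ± 0.11, adjusted p = 0.633) and Slc25a27 (-0.0091 ± 0.11, adjusted p = 0.965) did not pass. Of the 5 family members that carry other symbols (Ucp1, Ucp2, Ucp3, Mtch1 and Mtch2) only Ucp3 passed, where 20.7% of all genes did. Ucp3 is the uncoupling protein of muscle. It fell by 0.93 ± 0.21 on the log2 scale (adjusted p = 0.00488), from 140 to 343 CPM in WLM to 72.5 to 229 CPM in REL, with overlap.

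The remaining members, Slc25a45, Slc25a46 (an outer membrane protein of mitochondrial fission and lipid transfer), Slc25a48 and Slc25a53, had average changes from -0.11 ± 0.059 (Slc25a46) to 0.77 ± 0.47 (Slc25a48) and did not pass. Slc25a48 rested on 208 counts over all libraries, and of the untested members Slc25a41 had at most 12 and Slc25a43 at most 8 counts in a library. Outside the family, the TIM22 route that inserts carriers into the inner membrane had 3 of 13 genes higher (Agk 0.45 ± 0.088, adjusted p = 0.00161; Timm22 0.27 ± 0.071, adjusted p = 0.0118; Timm10b 0.26 ± 0.076, adjusted p = 0.0206) and 1 lower (Timm29 -0.21 ± 0.063, adjusted p = 0.0234), with a median of 0.0393, where 10.7% of all genes were higher and 9.98% lower. The same shares stand beside the next counts. Of 3 outer membrane channels, Vdac1 and Vdac3 fell (-0.28 ± 0.073 and -0.26 ± 0.062, adjusted p = 0.0119 and 0.00674). Of 9 carriers of other families, such as the pyruvate carrier subunits Mpc1 and Mpc2, only Sfxn4 rose (0.38 ± 0.11, adjusted p = 0.0201).

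Between genotypes no Slc25 member passed in edgeR. Counts of 0 of 40 stood beside 0.0294% of all genes in WLM, 0.0117% in REL, 0.211% averaged over phases and 0.0% for the genotype by refeeding interaction. DESeq2 and limma-voom also called 0 members in each of the 4. At an unadjusted p of 0.05, there was 1 member in WLM, 4 in REL, 6 in the average and 2 for the interaction, or 2.5%, 10%, 15% and 5.0%, against 4.86%, 4.36%, 6.77% and 2.37% of all genes. The smallest adjusted p among members was 0.942, 0.944, 0.406 and 1.0.

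The members of smallest unadjusted p in the average were Slc25a29, with a log2 difference of -0.27 ± 0.083 (mCK-hLPL minus WT; unadjusted p = 0.0044, adjusted p = 0.406), and Slc25a20, with 0.21 ± 0.068 (unadjusted p = 0.0059, adjusted p = 0.448). Slc25a29 was at 6.5 ± 0.394 CPM (SD, n = 5) in WT_WLM and 5.61 ± 0.688 (n = 5) in mCK-hLPL_WLM, and at 5.15 ± 0.876 (n = 4) and 4.12 ± 0.568 (n = 5) in REL. Slc25a20 was at 39.8 ± 4.54 CPM (SD, n = 5) and 45.0 ± 1.43 (n = 5) in WLM and at 30.4 ± 3.19 (n = 4) and 35.9 ± 4.56 (n = 5) in REL. The genotypes overlapped in both phases for each gene, and neither difference holds after adjustment. In REL alone Slc25a33, a pyrimidine nucleotide carrier, had the smallest p (-0.21 ± 0.068, unadjusted p = 0.0058, adjusted p = 0.944). Slc25a1 had an interaction of 0.71 ± 0.53 (adjusted p = 1.0), a size that these 4 or 5 libraries a group did not separate from their spread.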

How the data were processed

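The members and all lists were chosen with earlier results of these data known, so they are no independent evidence. Per the labels' protocols, RNeasy kits gave the RNA, and the library kit was NuGEN's Universal Plus mRNA. The authors deposited whole-number counts per gene symbol that had not been normalized. The submitters' processing notes name mm10 and GRCm38 as builds, and DESeq2 1.28.1 beside Salmon 0.14.2 as tools. What each did, which annotation was taken and how strand was set is not given in the sources used here. In the table, a spreadsheet had turned 24 symbols into dates (0.0628% of counts), which are not named. Counts cover all members, but the values of 1 member and of 1 gene of another list are not reported here.

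Counts were filtered with filterByExpr (minimum count 10), TMM-scaled (factors 0.8804 to 1.166) and tested with the quasi-likelihood functions of edgeR 4.0.16 under R 4.3.3, all 19 libraries entering 1 fit with a mean for each of the 4 groups. P-values are two-sided and Benjamini-Hochberg adjusted over 17028 genes, threshold 0.05. Log2 changes are given ± SE and CPM ± SD. The SE was derived as the size of the log2 change divided by the square root of its quasi-likelihood F. The method was tested on simulated data. Alternatives covered filters, scaling, DESeq2 1.42.0, limma-voom (limma 3.58.1), 2 groups alone, a replicate block, libraries left out and marker covariates. Values per library were taken for the 15 members past the threshold and the 5 of highest CPM. Same-numbered libraries correlated at -0.339 to 0.322 after group means were removed, so the numbers were not taken to pair samples. No 2 replicates agreed within sampling noise (smallest chi-square per degree of freedom 25.64). Gene positions and lengths are from GENCODE M21 on GRCm38; promoters are from RefSeq.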

Additional observations from a re-analysis of the deposited data

Results flagged for a closer look

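Among the 20 members with values per library, 80 groups were screened for a library that stood apart by Dixon's criterion, and 3 were flagged; chance flags about 1 in 20 groups. Slc25a39 was at 25.2 CPM in WT_WLM replicate 3, below the next library at 27.4 and the others up to 28.0 CPM. Slc25a30 reached 18.9 CPM in mCK-hLPL_REL replicate 4, above the next at 14.3 CPM, and its average refeeding call is lost without that library. Slc25a24 was at 6.67 CPM in mCK-hLPL_REL replicate 2, above the next at 5.34 CPM, and its call is likewise lost without it.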

How the results depend on the processing

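Of 15 members called in the averaged refeeding difference, 8 kept the call under every alternative run. Among them were Slc25a34, Slc25a39, Slc25a42, Slc25a10, Slc25a1, Slc25a35 and Slc25a29. The average gave 12 to 16 members with 1 library left out, 18 with DESeq2 and 10 with the erythroid covariate (6 higher, 4 lower). That covariate took the call from Slc25a20, Slc25a28, Slc25a37, Slc25a24 (adjusted p = 0.467) and Slc25a17 (adjusted p = 0.316). For refeeding in WT the count of 9 became 1 with the replicate block (17 numbered libraries, 2 of them WT_REL), 2 in those libraries without it, 5 without the 3 libraries richest in liver transcripts and 3 with the erythroid covariate. With 1 library left out it was 4 to 10: 5 without WT_WLM replicate 3, WT_REL replicate 1 or WT_REL replicate 2, and 4 without WT_REL replicate B. For mCK-hLPL the count of 11 became 7 with only the 2 groups fitted, 7 with the replicate block, 7 without the 3 libraries richest in lymph node transcripts other than Ighm, 6 with the erythroid covariate and 7 to 13 with 1 library left out (7 without mCK-hLPL_REL replicate 2). The block gave 11 members in the average (Slc25a17, Slc25a22, Slc25a24 and Slc25a37 lost the call) and 0 between genotypes. Over all genes, calls in the average went from 3521 to 992 with the block and 1054 with the erythroid covariate, in WT from 831 to 32 with the block, 492 without a filter and 1383 with DESeq2, and in mCK-hLPL from 1387 to 484, 793 and 2059. Between genotypes DESeq2 called 22 genes in WLM against 5, 27 in REL against 2 and 80 in the average against 36. Slc25a25 reversed, to a log2 change of 0.0499, with the erythroid covariate. Of the other values of single members under an alternative, 1134 kept direction and side of the threshold, 158 lost the call and 7 gained it. The causes were not tested. The covariates, the 17 libraries without block, the median scaling and the lymph node choice without Ighm were added after seeing the data. The 3 libraries left out for liver or for lymph node transcripts were all REL. Those left out for lymph node transcripts other than Ighm were all WLM. Each of these choices thus thins 1 phase only. Members under about 1 CPM are limited by depth.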
